A study of Mus musculus with 49 samples.

Results

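MHC class II molecules are the surface proteins on which professional antigen-presenting cells (B cells, dendritic cells, activated macrophages) display peptides from engulfed material to CD4 T cells. Expression was described here for 9 genes of this pathway out of 55487 genes in the count table, taken as a list by name: H2-Aa, H2-Ab1 and H2-Eb1, which encode chains of the class II molecules, Cd74 (the invariant chain, which fills the groove during assembly), Ciita (the master transcriptional coactivator of the family), H2-DMa and H2-DMb1 (the chains of the peptide exchange catalyst H2-DM), and H2-Oa and H2-Ob (the chains of H2-O, an inhibitor of H2-DM). All 9 matched a gene identifier of the table.

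RNA sequencing covered 49 libraries from 6 HuHER2 mice, each with a palpable mammary tumor. HuHER2 mice carry human HER2 as a transgene, and no source used here gives its promoter or the background strain. All 6 mice carried the transgene and a tumor, and palpation for tumors had begun at 7 months of age. The mice were injected once into a vein, 3 of them with PBS and 3 with BP, an iron oxide nanoparticle known in the labels by that code, at 5 mg Fe per mouse. Organs were collected after 7 days according to the series' design text, whereas a treatment protocol in the labels gives 31 days. Whole tissue of 6 sites per mouse was sequenced (36 bulk libraries), namely spleen, liver, lung, bone marrow, lymph node and tumor. From BP mice a second section of the organs, lung excepted, was dissociated and cells holding nanoparticles were pulled out with a magnet. These nanoparticle-associated cells, called NA cells below, gave 3 libraries for bone marrow, liver, spleen and tumor alike and 1 for lymph node, so that 16 of 17 groups held 3 libraries. The magnet selects cells by iron content, not by cell type, and the magnetic fraction of each organ came from the same 3 mice as its bulk tissue.

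Class II genes share a promoter architecture. The X box is bound by the RFX complex and the Y box by NF-Y, and CIITA is recruited to the assembled complex without contacting DNA itself. In B cells and dendritic cells Ciita is switched on from cell-type-specific promoters, and in most other cells by interferon gamma. Inside endosomes Cd74 is cut away by cathepsins, H2-DM exchanges the remaining fragment for antigenic peptides, and H2-O, found mainly in B cells, holds H2-DM back. Mature dendritic cells raise CD83, which protects class II molecules from the ubiquitin ligase MARCH1.

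To show this shared architecture, promoter windows from RefSeq (assembly GRCm38.p6, 250 bases before to 50 after the start) were matched by symbol for 6 of the 9 genes. They were searched on the gene's strand for GNAAC, a core of the X box, followed after 20 to 35 bases by the Y box TGATTGG. The motifs and their spacing were set with the sequences in view, and the 2 do not overlap. The pair was found in 5 of the 6 genes, H2-Aa, H2-Eb1, H2-DMb1, H2-Oa and H2-Ob, and in neither window of H2-DMa. Of all 32851 promoter windows of that length, searched on both strands, 2568 (7.82%) held the Y box and 140 (0.426%) the pair. The stretches of 4 genes, chosen to show the shared pair in chain and inhibitor genes, are printed 5′ to 3′ on the gene's strand, with both motifs in capitals.
H2-Aa: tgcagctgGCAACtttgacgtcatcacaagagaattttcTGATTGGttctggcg
H2-Eb1: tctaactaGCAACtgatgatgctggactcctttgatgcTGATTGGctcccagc
H2-Oa: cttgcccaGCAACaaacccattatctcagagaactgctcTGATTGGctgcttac
H2-Ob: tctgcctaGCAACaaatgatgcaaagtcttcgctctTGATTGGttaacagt
They lie at chr17:34287859-34287912 on the minus strand and at chr17:34305768-34305820, chr17:34092295-34092348 and chr17:34238810-34238860 on the plus strand, in that order. The gap between the motifs was 26, 25, 26 and 23 bases, and the Y box began 50, 61, 45 and 59 bases before the RefSeq start. A match describes the letters and is not a measured binding site.

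In the GENCODE M21 annotation of GRCm38, 7 of the genes lie in the class II region of chromosome 17: H2-Oa (ENSMUSG00000024334, 34092340-34095234), H2-DMa (ENSMUSG00000037649, 34119541-34139101), H2-DMb1 (ENSMUSG00000079547, 34153072-34160230), H2-Ob (ENSMUSG00000041538, 34238903-34254414), H2-Ab1 (ENSMUSG00000073421, 34257689-34269419), H2-Aa (ENSMUSG00000036594, 34282744-34287823, minus strand) and H2-Eb1 (ENSMUSG00000060586, 34305867-34316674). Ciita (ENSMUSG00000022504) lies on chromosome 16 at 10480059-10528418, and Cd74 (ENSMUSG00000024610) on chromosome 18. All are protein coding. H2-DMb1 has a near copy, H2-DMb2, whose expected counts were fractional in every library, so the reads assigned to these genes are uncertain. H2-Eb1 has a related gene, H2-Eb2, whose expected counts were whole numbers in every library. Class II genes differ in sequence between mouse strains, and whether reads of these mice were lost against the reference genome was not tested.

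The libraries held 9362264 to 19734849 counts, so that 3 counts, the upper limit behind a count of 0, equal 0.152 to 0.32 CPM (counts scaled to the library total). Marker genes mostly went with the organ labels. Summed lung epithelium markers were 54140 to 63580 CPM in PBS lungs and at most 137.2 CPM in other PBS organs. Summed mammary epithelium markers were 12850 to 25290 CPM in PBS tumors, and hepatocyte markers 82490 to 103100 CPM in PBS livers. Mammary epithelium markers were also found in PBS lymph nodes, with Csn2 at 254.7 to 1373 CPM and Krt8 at 53.3 to 192.9 CPM. Mitochondrial genes took 48.16 to 57.15% of the counts of liver NA cells against 5.67 to 7.06% in their bulk livers, 28.6% in 1 lymph node of a PBS mouse, and up to 19.4% in 1 bulk tumor of a BP mouse. No pair of replicates was close enough in its counts to be taken as 1 library deposited again. BP and PBS mice were separate animals, so p-values between them measure the spread between mice. NA cells and bulk tissue came from the same mice and were fitted without pairing. Contrasts between organs also used several organs of the same mice. The p-values of these contrasts mix spread between and within mice.

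The 9 genes were highest in spleen and next highest mostly in lymph node, the organs richest in B cells, and lowest in liver, bone marrow or tumor. This order is of CPM of the library total, whereas the tests between organs carry TMM scaling. That scaling lifts the PBS livers (factors 0.53 to 0.58) relative to bone marrow (0.999 to 1.007). Which of liver and bone marrow is lower therefore depends on the scaling for some genes, Cd74 among them. In PBS mice Cd74 stood at 3295, 3684 and 4826 CPM in spleen, 1178 to 2043 CPM in lymph node, 700.3 to 1394 CPM in lung, 98.2 to 1380 CPM in tumor, 266.5 to 471.3 CPM in bone marrow and 229.6 to 368.0 CPM in liver. H2-Ab1 followed a like course, from 1048 to 1349 CPM in spleen and 373.8 to 738.3 CPM in lymph node down to 61.8 to 102.7 CPM in bone marrow. The tumors spread most: those of PBS mice 1, 2 and 3 held 385.1, 98.2 and 1380 CPM of Cd74, 12.6, 3.39 and 46.4 CPM of Ciita and 12.9, 4.32 and 79.7 CPM of H2-DMa. PBS mouse 2 was lowest and PBS mouse 3 highest for 8 of the 9 genes, the exception being H2-Oa.

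**Figure D1:**
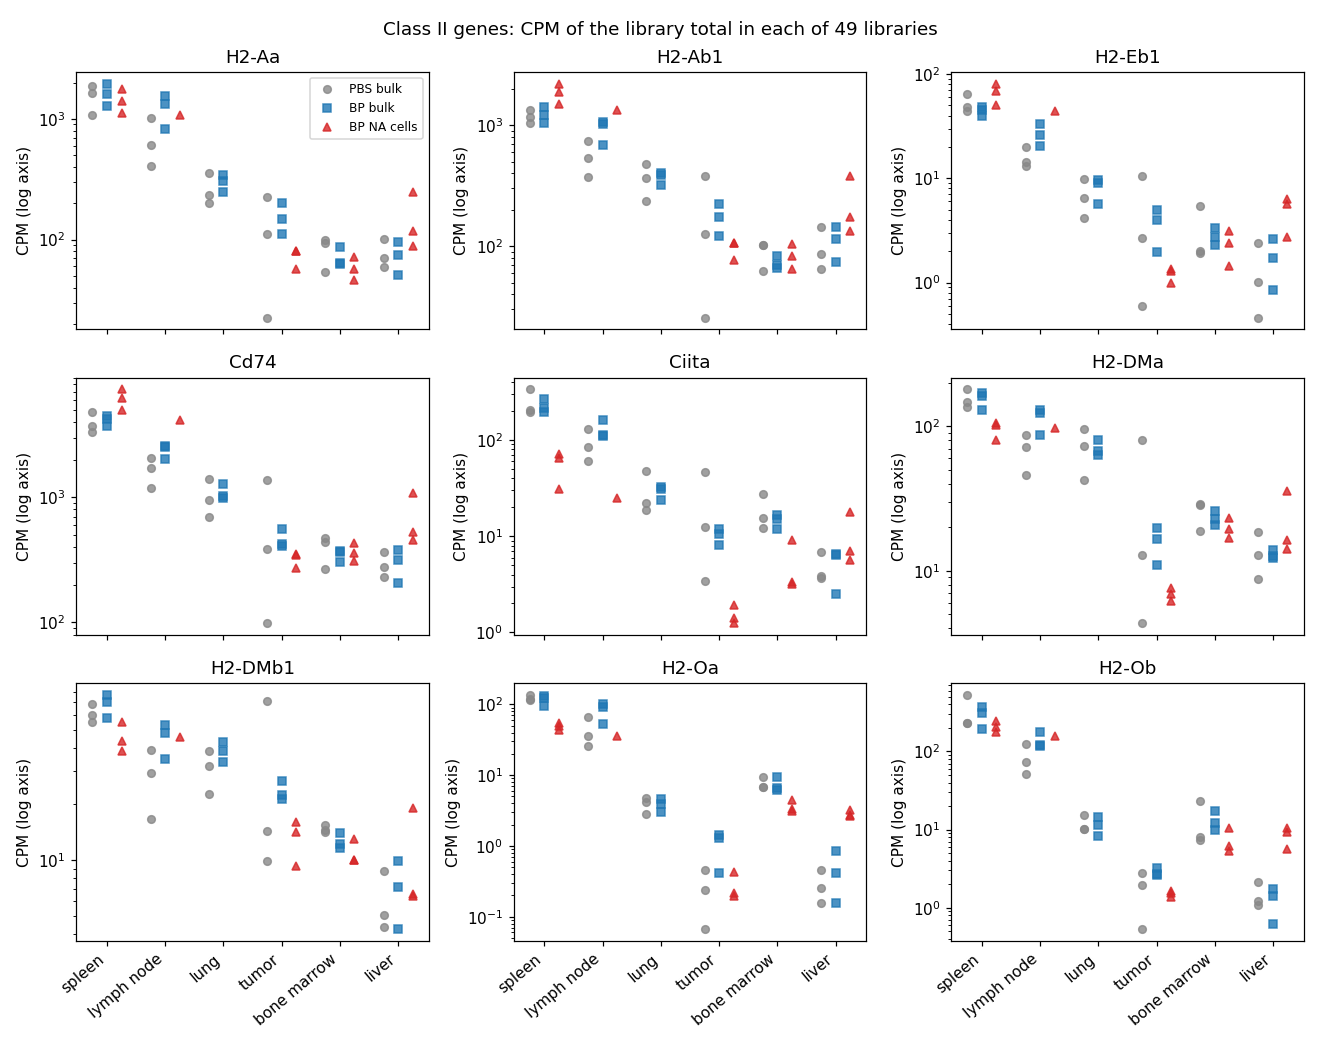
CPM of the library total (log axis) for each class II gene in every library, by organ, with PBS bulk (circles), BP bulk (squares) and nanoparticle-associated cells (triangles). The 3 PBS tumors span 98.2 to 1380 CPM of Cd74, while Ciita of NA cells lies below the bulk tissue of BP mice in tumor, spleen and bone marrow.

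The H2-O genes separated the organs most. H2-Ob held 229.2 to 524.6 CPM in PBS spleens and 51.8 to 124.7 CPM in lymph nodes, but 7.39 to 22.9 CPM in bone marrow, 10.2 to 15.2 CPM in lung, 0.532 to 2.76 CPM in tumor and 1.10 to 2.14 CPM in liver. H2-Oa kept a similar order, with 115.2 to 135.1 CPM in spleen and under 0.5 CPM in each PBS tumor and liver, near the value of 3 counts. Of the 15 organ pairs, 14 differed for H2-Oa and 13 for H2-Ob, against 6 for Cd74, 8 each for H2-Aa, H2-Ab1 and Ciita, 7 for H2-Eb1 and 3 each for H2-DMa and H2-DMb1 (edgeR's quasi-likelihood test, Benjamini-Hochberg adjusted p under 0.05). In all, 70 of 135 differences were called, and of all genes 22 to 63.8% were called in these 15 contrasts. Spleen differed from liver and from bone marrow in 9 of 9 genes, where 63.8% and 31.8% of all genes were called, and from tumor in 8 of 9 (53.1%) and lung in 7 of 9 (51.2%). Spleen and lymph node differed in 2 of 9 (22%), the H2-O pair. Lymph node differed from liver in 7 of 9 (57.9%), from bone marrow in 7 of 9 (49.6%), from tumor in 6 of 9 (47.6%) and from lung in 3 of 9 (39.4%). Among the 4 organs with the lowest levels few members were called against a large background: 3 of 9 between lung and bone marrow (59.7%), 2 of 9 between lung and liver (60.1%), lung and tumor (47.6%), bone marrow and tumor (53.9%) and bone marrow and liver (62.8%), and 1 of 9 between tumor and liver (53.3%).

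Between organs next to each other in the order of means, the genes mostly did not differ beyond their spread. No neighbouring pair was called for H2-Aa, H2-Ab1, H2-Eb1, Cd74, H2-DMa or H2-DMb1. For Ciita the step from lymph node to lung was called (1.73 on the log2 scale, adjusted p = 0.0359, edgeR). For H2-Oa the 4 steps from spleen to lymph node, bone marrow, lung and liver were called, and liver and tumor were not told apart. For H2-Ob the steps from spleen to lymph node, lymph node to bone marrow and lung to tumor were called, whereas bone marrow and lung, and tumor and liver, were not told apart. The sum of 8 B cell markers was 4094 to 5223 CPM in PBS spleens, 776.7 to 1607 CPM in lymph nodes, 403.4 to 630.3 CPM in bone marrow, 52.7 to 169.5 CPM in lung, 7.52 to 12.5 CPM in liver and 3.66 to 7.68 CPM in tumor. The H2-O genes shared its order of spleen, lymph node, bone marrow and lung, whereas the mean of the other 7 genes was higher in lung than in bone marrow. The part of B cells in the class II levels was not tested, and in bulk tissue fewer cells of a type and less RNA per cell cannot be told apart.

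Compared per kilobase of exons, Cd74 was the most abundant of the 9 in every PBS organ, with H2-Ab1 and H2-Aa next. Group means of Cd74 ran from 173.6 CPM per kilobase in liver to 2344 CPM per kilobase in spleen, and it exceeded H2-Ab1 by 3.55 to 8.25 times in each of the 49 libraries. H2-Eb1 was far below H2-Ab1, at 0.703 to 8.12% of its level per kilobase over all libraries. Whether reads of H2-Eb1 were lost against the reference genome was not tested. Ciita, whose product acts as a regulator, ranked 7 to 9 of 9. The inhibitor and its target changed places between organs. In PBS spleens H2-Oa stood at 184.1 to 214.3% and H2-Ob at 81.6 to 230.4% of H2-DMa per kilobase. In PBS tumors H2-Oa stood at 0.729 to 8.65% and H2-Ob at 2.22 to 9.80%, with no overlap between the organs for either gene.

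**Figure D2:**
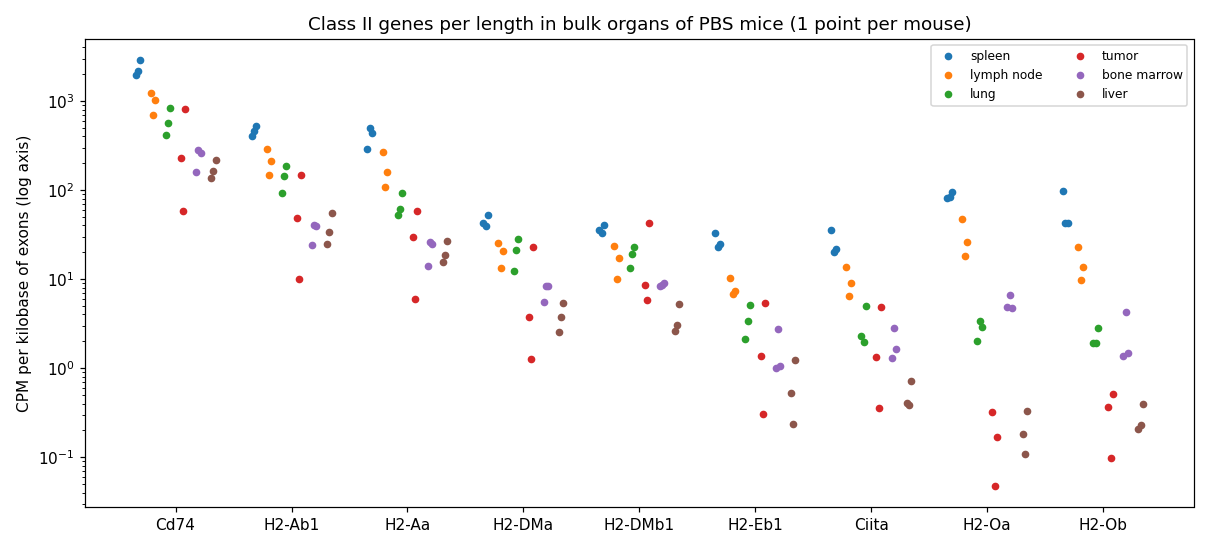
Levels per kilobase of exons (log axis) of the 9 genes in the bulk organs of PBS mice, 1 point per mouse, coloured by organ. Cd74 is highest in every organ, and H2-Oa and H2-Ob spread furthest, from below 1 CPM per kilobase in tumor and liver to 42 or more in spleen.

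Over the 49 libraries (log2 of CPM plus 0.5) levels of the members were compared with each other and with other genes. H2-Aa, H2-Ab1, H2-Eb1 and Cd74 correlated with each other at Pearson r of 0.963 to 0.987, and H2-Oa with H2-Ob at 0.981, while H2-DMb1 and H2-Oa had the lowest value, 0.728. Among 11655 other genes, those most like H2-Ob were Cxcr5 (0.986), the homing receptor of B cells to follicles, then Lpxn (0.978), Fcrl1 (0.977), Lax1 (0.974) and Fcmr (0.974). Those most like H2-Ab1 were H2-Ea-ps (0.930), Bcl2a1a (0.922), H2-DMb2 (0.913), Bcl2a1b (0.907) and Snx8 (0.884). Those most like Ciita were H2-DMb2 (0.940), Tk2 (0.932), H2-M3 (0.932), Btla (0.930) and Tlr1 (0.929). These values describe libraries that share mice, organs and fractions.

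Whether the nanoparticles changed class II expression in whole organs was addressed by the BP and PBS bulk libraries. None of the 9 genes was called in any of the 6 organs (edgeR, adjusted p under 0.05), and DESeq2 called none either. Of all genes, 0% were called in tumor, lung, lymph node, spleen and bone marrow, and 0.0235% in liver. H2-Oa was too low to be tested in tumor and liver. At an unadjusted p under 0.05 there were 4 of 9 genes in lymph node and 0 in the other 5 organs.

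In lymph node all 9 genes had higher estimates in BP mice, by 0.34 (Ciita) to 0.86 (H2-Oa) on the log2 scale with a median of 0.60, and none passed the test (adjusted p = 0.866 for each gene, edgeR). The median of all genes was -0.01. H2-DMa held 122.8, 130.3 and 87.2 CPM in BP mice 1 to 3 against 87.0, 45.9 and 71.3 CPM in PBS mice 1 to 3. H2-Eb1 held 33.4, 26.0 and 20.5 CPM against 19.97, 13.1 and 14.2 CPM. These were the 2 genes of 9 whose groups did not overlap in the higher direction, as 5.31% of all genes did. Cd74, at 2588, 2506 and 2020 CPM against 2043, 1178 and 1705 CPM, overlapped. PBS mouse 2 was lowest for all 9 genes. Its library stood apart, with 28.6% mitochondrial counts against 5.8 to 11.6% in the other bulk lymph nodes, a TMM factor of 0.685 against 0.958 to 1.15, and 1421 CPM of the brown fat gene Ucp1 against 30.4 to 373.8 CPM. Without this library the differences ran from 0.29 to 0.75 with none called. Marker sums moved as well: the B cell markers were 1458 to 2198 CPM in BP and 776.7 to 1607 CPM in PBS lymph nodes, the adipocyte markers 48.5 to 1500 CPM and 498.4 to 2758 CPM, and the hepatocyte markers 28.7 to 479.1 CPM and 538.0 to 979.9 CPM. Of the mammary epithelium markers, Csn2 held 27.3 to 1267 CPM in BP and 254.7 to 1373 CPM in PBS lymph nodes. Krt8 held 4.91 to 181.3 CPM in BP and 53.3 to 192.9 CPM in PBS lymph nodes. The part of all these markers in the difference was not tested.

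In tumor the differences went both ways, from -0.90 ± 0.86 (SE, Ciita) to 0.80 ± 0.66 (H2-Ob) on the log2 scale, with Cd74 at -0.34 ± 0.84. Cd74 held 407.2, 556.4 and 422.6 CPM in BP tumors, inside the wide range of the PBS tumors. The direction rested on the tumor of PBS mouse 3, since without it Cd74 was 1.05, Ciita 0.50 and the median of the 8 tested genes 1.18 higher in BP, with none called. The bulk tumor of BP mouse 1, also used for the NA cell comparison, stood apart too. It had 19.45% mitochondrial counts against 3.06 to 8.33% in the other bulk tumors, and a TMM factor of 0.775 against 1.008 to 1.157. Its Ucp1 stood at 878.7 CPM against 0.12 to 16.58 CPM in the other bulk tumors.

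In spleen the estimates ran from -0.23 (H2-Eb1) to 0.13 (H2-DMb1), in lung from -0.03 (H2-Ob) to 0.34 (H2-DMb1), in liver from -0.32 (H2-Ob) to 0.33 (H2-Eb1) and in bone marrow from -0.31 (Ciita) to 0.06 (H2-Ob), and no gene passed the test (adjusted p = 0.999 in liver and 1.00 in the other 3, edgeR). H2-DMb1 in bone marrow was the sole gene outside lymph node with no overlap, at 14.0, 12.3 and 11.6 CPM in BP against 14.1, 14.6 and 15.3 CPM in PBS mice, as were 3.17% of all genes in that direction. A test of whether the difference of 1 organ departed from the mean of the other 5 called 0 of 54 combinations in edgeR, with 2 at an unadjusted p under 0.05, and 1 in DESeq2. In these tests edgeR called 4.06% of all genes for tumor and 0% for the other 5 organs.

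**Figure D3:**
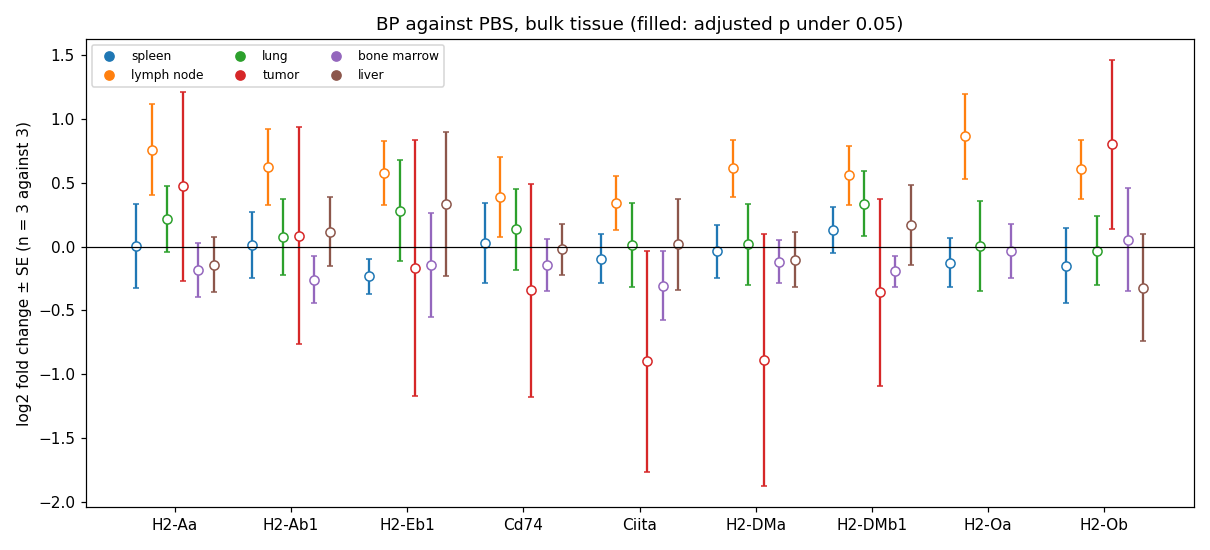
Log2 fold change ± SE of BP against PBS bulk tissue for the 9 genes in 6 organs, 3 libraries a group, filled where the adjusted p is under 0.05. No point is filled, all 9 lymph node estimates lie above 0, and the tumor estimates carry the widest errors.

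Which class II genes the cells that held nanoparticles expressed was addressed by comparing NA cells with bulk tissue of the same 3 mice. The answer differed by organ: in liver all 9 genes rose, in spleen 3 rose and 4 fell, and in tumor and bone marrow 1 gene each fell. NA cells, unlike bulk tissue, had been digested, and of 7 genes that respond to tissue dissociation (Fos, Jun, Egr1, Atf3, Ier2, Hspa1a, Hspa1b) 6 rose in NA cells of tumor and 7 in each of the other 3 organs. Of all genes 37.3% rose in liver and 20.2% in spleen, and 9.04% in tumor and 7.69% in bone marrow were called in either direction. Digestion and nanoparticle content cannot be told apart in this design.

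In spleen, where 42.2% of all genes were called (20.2% as higher and 22% as lower), the chains and the regulator moved apart. Cd74 held 7285, 4971 and 6214 CPM in NA cells of mice 1 to 3 against 4495, 3678 and 4252 CPM in their bulk spleens. H2-Ab1 held 2214, 1494 and 1890 CPM against 1430, 1046 and 1226 CPM, and H2-Eb1 80.9, 49.96 and 69.3 CPM against 47.8, 39.9 and 45.3 CPM. NA cells were above bulk tissue in every mouse for these 3 genes, which rose by 0.74 ± 0.13, 0.77 ± 0.14 and 0.76 ± 0.14 (log2 fold change ± SE, adjusted p = 0.00523, 0.00594 and 0.00691, edgeR). With the spread between replicates taken from 48 libraries of all organs these 3 calls were lost (adjusted p = 0.185, 0.191 and 0.253, edgeR). H2-Aa, the partner chain of H2-Ab1, held 1779, 1113 and 1416 CPM against 1964, 1273 and 1617 CPM and did not pass the test (0.00 ± 0.17).

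Ciita held 71.4, 30.8 and 64.4 CPM in splenic NA cells against 214.7, 196.5 and 267.8 CPM in bulk spleen, with no overlap. It fell by 1.87 on the log2 scale (SE 0.27, adjusted p = 0.00271, edgeR). H2-Oa held 48.8, 44.1 and 54.3 CPM against 131.9, 93.6 and 121.3 CPM and fell by 1.05 (SE 0.13, adjusted p = 0.00149, edgeR). H2-DMa fell by 0.51 (SE 0.12) and H2-DMb1 by 0.41 (SE 0.12), with adjusted p = 0.0129 and 0.0351 (edgeR). Both calls were also lost with the spread from 48 libraries (adjusted p = 0.417 and 0.440, edgeR), under which Ciita and H2-Oa were the 2 members called in spleen. Leaving out the bulk spleen of mouse 1 or of mouse 3 gave an adjusted p of 0.0535 or 0.0553 for H2-DMa, and leaving out any of 5 of the 6 libraries took H2-DMb1 up to 0.119 (edgeR). H2-Ob, at 244.3, 175.2 and 207.1 CPM against 306.4, 195.4 and 364.7 CPM, was not called (-0.28 ± 0.19).

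The cell type markers changed too, in a contrast where 20.2% of all genes rose and 22% fell. Of the B cell markers 5 of 8 fell, among them Ms4a1 (-1.84), Cd22 (-1.73), Cd79b (-1.50) and Pax5 (-0.87), and their sum was 1858 to 2824 CPM in NA cells against 3467 to 5311 CPM in bulk spleen. Of the macrophage markers 5 of 11 fell and none rose. Of the dendritic cell markers 3 of 9 rose, led by Ccr7 (3.13), with Itgax (1.09) and Zbtb46 (0.66), and Batf3 fell (-1.37). Summed dendritic cell markers were 888.4 to 1108 CPM against 206.7 to 282.3 CPM, and 5 of 9 markers were not called. Ccr7 alone made up 710.1 to 923.1 CPM of the sum against 87.9 to 136.2 CPM, and which cells carried it was not tested. Of 7 neutrophil markers 3 rose, Ngp (1.95), Ltf (1.75) and Mpo (1.57). The part of cell composition in the class II differences was not tested.

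In liver 74.8% of all genes were called, 37.3% as higher and 37.5% as lower, and all 9 class II genes were among the higher ones. On the log2 scale they rose by 3.64 ± 0.41 (H2-Ob), 3.45 ± 0.51 (H2-Oa), 2.38 ± 0.42 (H2-Eb1), 1.98 ± 0.26 (Cd74), 1.82 ± 0.27 (H2-Aa), 1.81 ± 0.28 (H2-Ab1), 1.74 ± 0.36 (Ciita), 1.54 ± 0.20 (H2-DMa) and 1.34 ± 0.33 (H2-DMb1), with adjusted p = 3.8e-05 to 0.00493 (edgeR). The median of the 9 was 1.81 and that of all genes 0.01. Since these NA libraries were rich in mitochondrial counts, CPM over the counts outside the mitochondrial genome are given. On that scale Cd74 held 2098, 1243 and 1033 in NA cells against 336.0, 399.1 and 223.8 in bulk liver, and Ciita 34.6, 13.4 and 15.9 against 6.90, 6.76 and 2.69. NA cells lay above bulk liver in every library for all 9 genes. On the scale of the library total the groups overlapped for H2-Aa, H2-Ab1, Ciita and H2-DMb1, and that scaling moved the median of all genes to -0.74.

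The inhibitor genes were barely present in bulk liver. H2-Ob rested on 18, 21 and 8 counts in bulk liver and on 142, 202 and 61 counts in NA cells. H2-Oa rested on 11, 5 and 2 counts and on 41, 61 and 30 counts. Relative to H2-DMa per kilobase, H2-Ob stood at 3.27 to 8.06% in bulk liver and 16.5 to 41.5% in NA cells of liver, without overlap. In the same NA cells 8 of 8 B cell, 9 of 9 dendritic cell and 5 of 5 monocyte markers rose, where 37.3% of all genes did. Of the macrophage markers 4 of 11 rose, close to that share. Of the hepatocyte markers 6 of 6 fell, where 37.5% of all genes did. Summed B cell markers were 39.6 to 67.4 CPM against 10.6 to 14.7 CPM and summed dendritic cell markers 82.7 to 119.4 CPM against 11.4 to 16.7 CPM. Their part in the rise of the class II genes was not tested.

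In tumor the class II genes lay lower in NA cells. Of all genes 9.04% were called there, 3.17% as lower, and Ciita was the 1 member among them. It held 1.41, 1.93 and 1.24 CPM in NA cells against 11.9, 10.6 and 8.16 CPM in the bulk tumors and fell by 2.75 on the log2 scale (SE 0.44, adjusted p = 0.0225, edgeR). Cd74, at 344.5, 351.7 and 273.3 CPM against 407.2, 556.4 and 422.6 CPM, showed a smaller difference that did not pass the test (-0.49 ± 0.25). The other 6 tested genes had estimates from -0.80 (H2-DMb1) to -1.64 (H2-Eb1), with adjusted p = 0.0789 to 0.174 (edgeR). All 8 tested genes had groups that did not overlap, as did 19.1% of all genes in the lower direction. With 3 libraries a group the calls were unstable: without any of the 3 NA libraries or without the bulk tumor of mouse 2 the adjusted p of Ciita was 0.0554 to 0.139 (edgeR), while without the bulk tumor of mouse 3 the number of members called was 5, and DESeq2 called 4. Macrophage markers fell as well (6 of 10 tested, summed 198.7 to 225.8 CPM against 427.9 to 634.6 CPM), as did 3 of 5 monocyte markers and 4 of 4 tested adipocyte markers, and their part in the class II differences was not tested. Of 7 mammary epithelium markers 1, Krt8 (1.90), rose, and Krt18 and Epcam were higher without overlap but did not pass the test (1.43 and 1.02). Elf5 was lower without overlap, at 170.4 to 235.3 CPM in NA cells against 247.8 to 311.3 CPM in bulk tumors. The others overlapped: mean Csn2 (182.4 against 4815 CPM) and Csn3 (5289 against 9334 CPM) were lower, and mean Krt7 (261.1 against 161.7 CPM) was higher.

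In bone marrow, where 7.69% of all genes were called and 2.9% as lower, 1 of 9 class II genes passed the test. H2-Oa held 4.52, 3.33 and 3.07 CPM in NA cells against 9.34, 6.21 and 6.63 CPM in bulk marrow and fell by 1.02 on the log2 scale (SE 0.23, adjusted p = 0.0353, edgeR). Ciita held 9.20, 3.33 and 3.17 CPM against 16.6, 12.0 and 15.1 CPM, with no overlap, and missed the threshold (-1.48 ± 0.38, adjusted p = 0.0532, edgeR). Cd74 overlapped, at 429.3, 307.3 and 358.6 CPM against 363.5, 305.4 and 375.8 CPM (0.06 ± 0.15). With the mouse as a replicate block, 4 members were called: H2-Oa, Ciita (adjusted p = 0.0150), H2-Ob (0.0195) and H2-Aa (0.0360, edgeR). Without any 1 of the 3 bulk libraries or of the NA libraries of mice 2 and 3, the call of H2-Oa was lost (adjusted p = 0.0739 to 0.132, edgeR).

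**Figure D4:**
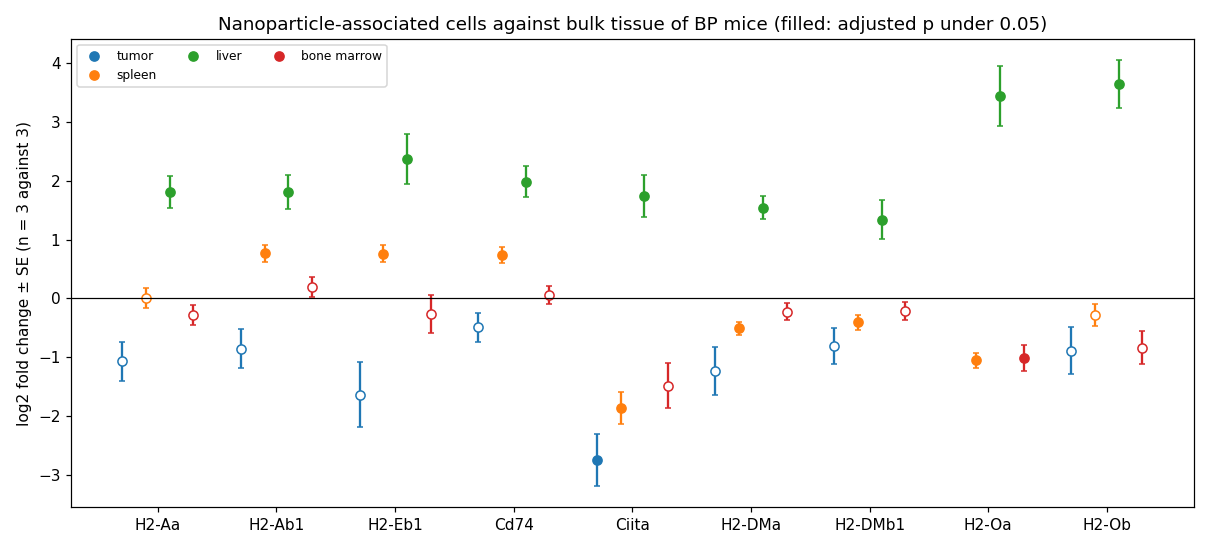
Log2 fold change ± SE of nanoparticle-associated cells against bulk tissue of the same mice for the 9 genes in 4 organs, 3 libraries a group, filled where the adjusted p is under 0.05. All 9 liver points lie above 0 and are filled, all tumor points lie below 0, and in spleen Cd74, H2-Ab1 and H2-Eb1 lie above and Ciita and H2-Oa below 0.

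Whether the difference between NA cells and bulk tissue depended on the organ was tested by setting each organ against the mean of the other 3 in 1 fit of 24 libraries. Of 36 combinations 19 were called. In tumor all 9 differences were lower than elsewhere, by 1.05 (H2-DMb1) to 2.56 (H2-Eb1) on the log2 scale, and 15.4% of all genes were called in that direction, 8.43% in the other and 23.8% in all. H2-Oa was too low in tumor to be tested there alone and entered this fit through its levels in other organs. Its departure in tumor therefore says little about the tumor itself. In liver all 9 were higher, by 1.68 (H2-Ab1) to 4.67 (H2-Oa), and 29.4% of all genes were called in that direction, 24.3% in the other and 53.6% in all. In bone marrow 1 of 9, H2-Ob, was lower (-1.61 ± 0.36, adjusted p = 0.00583, edgeR), where 7.22% of all genes were called as lower, 7.78% as higher and 15% in all. In spleen 0 of 9 were called by edgeR, with 3 at an unadjusted p under 0.05, where 9.59% of all genes were called as higher, 8.63% as lower and 18.2% in all.

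Ciita was also set against a gene it controls, as Ciita CPM per 100 CPM of Cd74, a ratio given as a description without a test. In tumor the ratio was 0.410 to 0.550 in NA cells, 1.90 to 2.91 in BP bulk and 3.26 to 3.45 in PBS bulk, 3 ranges that do not overlap. In spleen it was 0.620 to 1.04 in NA cells, 4.78 to 6.30 in BP bulk and 4.26 to 10.2 in PBS bulk. In bone marrow it was 0.884 to 2.14 in NA cells and 3.93 to 4.56 in BP bulk. In liver NA cells (1.08 to 1.65) and BP bulk (1.20 to 2.05) overlapped. The lymph node NA library of BP mouse 2 stood at 0.594, below the 4.44 to 6.30 of BP bulk lymph nodes.

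**Figure D5:**
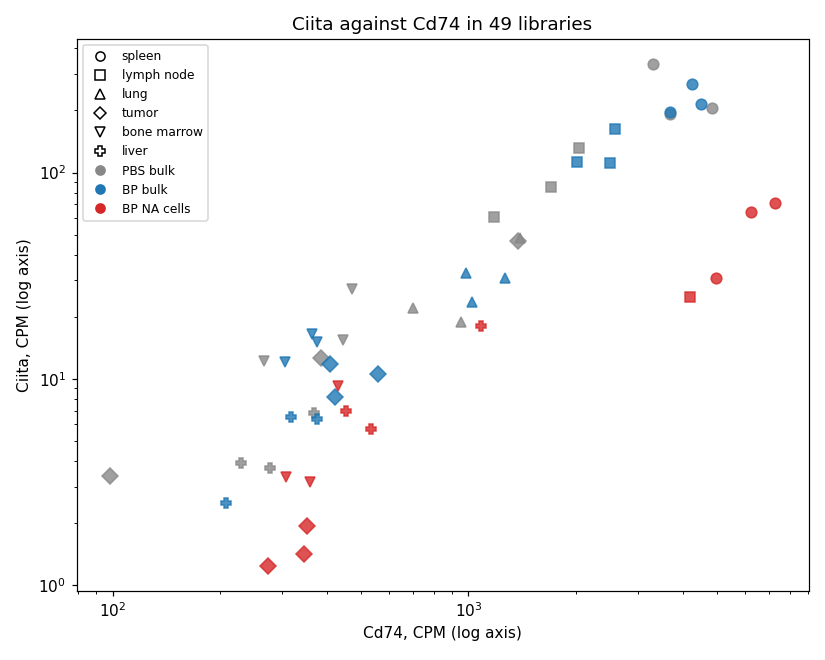
Ciita CPM against Cd74 CPM (both log axes) in 49 libraries, with symbols for organs and colours for PBS bulk, BP bulk and nanoparticle-associated cells. NA cells of spleen, lymph node, bone marrow and tumor have less Ciita than the BP bulk libraries of their own organ, and the liver NA cells overlap with bulk liver in this ratio.

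Among NA cells of different organs the class II levels were far apart. Of 54 differences 48 were called, against 34.4% of all genes between spleen and bone marrow, 60.2% between spleen and liver, 61.8% between tumor and liver, 62% between liver and bone marrow and 64.3% for tumor against spleen and against bone marrow. Spleen exceeded bone marrow in 9 of 9 genes (Cd74 by 3.96, H2-Ob by 4.71 on the log2 scale), and liver did so as well (Cd74 by 2.36, Ciita by 2.36). Tumor NA cells were below those of spleen and liver in 9 of 9 genes each, by 1.79 (H2-DMb1) to 7.39 (H2-Oa) against spleen. Tumor and bone marrow did not pass the test for H2-Aa, H2-Ab1, Cd74 and H2-DMb1, and tumor was lower for the other 5. These contrasts carry TMM scaling, which lifts the liver libraries (factors 0.348 to 0.584) relative to CPM of the total. On CPM of the total 3 directions turn: mean H2-Oa was 2.86 CPM in liver and 3.64 CPM in bone marrow NA cells, and mean H2-DMb1 was 10.7 CPM in liver, 10.9 CPM in bone marrow and 13.2 CPM in tumor NA cells.

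The lymph node NA cells gave 1 library, so that their values have no replicate check. It held 4183 CPM of Cd74, 1331 CPM of H2-Ab1, 44.2 CPM of H2-Eb1 and 24.8 CPM of Ciita, against 2506, 1021, 26.0 and 111.3 CPM in the bulk lymph node of the same mouse. As in spleen, Cd74, H2-Ab1 and H2-Eb1 were above and Ciita below all 3 BP bulk libraries. H2-Oa was below them at 36.3 CPM against 53.4 to 102.8 CPM.

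The remaining genes of the pathway were taken as fixed lists. Of the other class II genes, in spleen H2-DMb2 (-0.71) and H2-Eb2 (-0.62) fell while H2-Ea-ps, annotated as a pseudogene of an alpha chain, rose (1.57), and in liver H2-DMb2 (1.79) and H2-Ea-ps (4.01) rose. Of 10 transcription factors of class II genes, 3 rose and 3 fell in spleen, where 20.2% of all genes rose and 22% fell. The 3 were led by Irf4 (3.27), a factor of B cell and dendritic cell activation, which held 792.8, 539.0 and 647.3 CPM in NA cells against 84.9, 58.9 and 88.1 CPM. Spi1 (1.02) and Irf8 (0.95) were the other 2 that rose, and Rfx5, a subunit of the RFX complex that binds the X box, fell (-0.73). In tumor Irf8 (-1.50) and Spi1 (-1.19) fell, where 3.17% of all genes did. In bone marrow none passed the test, and in liver 5 rose and 2 fell, close to the 74.8% of all genes called there.

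Genes of interferon gamma signalling, the pathway that induces Ciita, rose in spleen in 7 of 8 cases against 20.2% of all genes, with Ifng at 2.67, Socs1 at 1.79, Ifngr2 at 1.39 and Irf1 at 1.37. In liver 7 of 8 rose against 37.3% of all genes. In bone marrow 1 of 8 (Ifng, 3.16) rose, where 7.69% of all genes were called in either direction. In tumor 0 of 7 tested passed the test. Of the 8 endosomal processing genes, Ctss, the cathepsin that makes the last cut of Cd74 in many presenting cells, fell in tumor (-1.06) and spleen (-0.85) and rose in liver (0.97). In spleen Ctsd (-0.67) and Ctsh (-0.51) fell as well and none rose, so that 3 of 8 fell against 22% of all genes.

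Marchf1 and Cd83, which act against each other on class II turnover, changed in opposite directions in spleen, tumor and bone marrow. Marchf1, the ligase, held 17.2, 11.3 and 14.8 CPM in splenic NA cells against 117.5, 93.6 and 120.4 CPM in bulk spleen. It fell in spleen (-2.76 ± 0.14), tumor (-3.11 ± 0.42) and bone marrow (-0.90 ± 0.16), with adjusted p = 0.000173, 0.0157 and 0.0169 (edgeR), and was not called in liver. Cd83 held 1275, 619.3 and 883.7 CPM against 119.4, 81.9 and 137.1 CPM in spleen and rose in all 4 organs, by 3.21 in spleen, 1.64 in tumor, 4.06 in liver and 1.49 in bone marrow. In the lymph node library Marchf1 stood at 7.59 CPM and Cd83 at 422.2 CPM, against 30.7 to 60.8 and 99.0 to 147.3 CPM in BP bulk lymph nodes. Of 6 genes of costimulatory and inhibitory signals to T cells, Cd274, which encodes the inhibitory ligand PD-L1 (2.67), and Cd86 (2.60) and Cd80 (2.48), ligands of CD28, rose in spleen and Icosl fell (-0.96). Of all genes 20.2% rose and 22% fell in spleen. In bone marrow Cd80 (1.77), Cd86 (1.73) and Cd274 (1.20) rose, where 7.69% of all genes were called in either direction. In liver 5 of 5 tested rose against 37.3% of all genes, and in tumor 0 of 5 tested passed the test. Of the 6 CD4 T cell genes 1 rose and 2 fell in spleen, against 20.2% and 22% of all genes. In liver 6 rose against 37.3% of all genes, and 1 of 5 tested fell in bone marrow against 2.9%. In tumor 2 were tested and neither passed, Lag3 at 1.54 and Cd4 at -1.82, both without overlap between the groups (adjusted p = 0.0892 and 0.0743, edgeR).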

How the data were processed

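Expected counts per gene were deposited by the authors for all 49 libraries. Per the submitters' processing notes, they used RSEM 1.3.1 and STAR 2.7.9a with mm10, after cutadapt 3.5 and FastQC 0.11.9. The annotation and strand setting are not given in the sources used here. The counts were rounded, scaled by TMM, filtered (filterByExpr, minimum count 10) and tested with edgeR 4.0.16 (quasi-likelihood, R 4.3.3) across all genes, two-sided, with Benjamini-Hochberg adjustment at 0.05. Each organ was fitted alone, and organ contrasts and interactions were fitted jointly. DESeq2 1.42.0, RLE scaling, no filter, other spreads, a mouse block and each library left out were alternatives. In joint fits all libraries of a replicate number were left out together. CPM were scaled to the library total, and fold changes carry TMM. All 9 genes were reported in each comparison, with at most 4 genes of a list past the threshold. The scripts were tested on simulated data. The members and lists were chosen with earlier results of these data known. Same-numbered NA and bulk libraries came from the same mouse (correlations of deviations -0.14 to 0.66).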

Additional observations from a re-analysis of the deposited data

Results flagged for a closer look

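The difference between NA cells and bulk tissue departed from the mean of the other 3 organs for every class II gene in tumor and in liver, by the interaction test of edgeR. In tumor the departures on the log2 scale were -1.59 for H2-Aa, -1.78 for H2-Ab1, -2.56 for H2-Eb1, -1.43 for Cd74, -2.21 for Ciita, -1.49 for H2-DMa, -1.05 for H2-DMb1, -2.31 for H2-Oa and -1.73 for H2-Ob. In liver they were 2.18 for H2-Aa, 1.68 for H2-Ab1, 2.65 for H2-Eb1, 1.79 for Cd74, 3.68 for Ciita, 2.10 for H2-DMa, 1.71 for H2-DMb1, 4.67 for H2-Oa and 4.22 for H2-Ob. In bone marrow the departure was -1.61 for H2-Ob. Because each organ is set against the others, the tumor and liver values are not independent of each other. H2-Oa was too low in tumor to be tested there alone, so its tumor value rests on its levels in other organs.

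The lymph node NA library, which entered no test, exceeded all 3 PBS bulk lymph nodes for 7 genes: Cd74 at 4183 CPM, H2-Ab1 at 1331 CPM, H2-Aa at 1080 CPM, H2-Ob at 157.9 CPM, H2-DMa at 96.8 CPM, H2-DMb1 at 45.8 CPM and H2-Eb1 at 44.2 CPM. Against the BP bulk lymph node of the same mouse the direction was the other way for H2-Aa (1323 CPM), H2-DMa (130.3 CPM) and H2-DMb1 (47.8 CPM). Its summed dendritic cell markers were 1749 CPM, of which Ccr7 made up 1605 CPM, against 398.2 to 625.2 CPM in BP bulk lymph nodes. Which cells carried Ccr7 there was not tested.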

How the results depend on the processing

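No alternative called a member between BP and PBS in any organ. For NA cells against bulk tissue the count called in tumor was 4 with DESeq2 and 4 with the spread taken from 48 libraries, and 0 to 5 with 1 library left out. In spleen it was 2 (Ciita and H2-Oa) with the spread from 48 libraries, with Cd74, H2-Ab1, H2-Eb1, H2-DMa and H2-DMb1 lost, and 5 to 7 with 1 library left out, and in liver 9 throughout. In bone marrow it was 2 without a filter, 2 with DESeq2, 0 with the spread from 48 libraries, 4 with the replicate block and 0 to 3 with 1 library left out. DESeq2 called 1 organ-dependent difference of BP against PBS. In the joint fits all libraries with the same replicate number were left out together. Organ differences called then ran from 51 to 79 (PBS bulk), 45 to 49 (NA cells) and 14 to 18 (NA cells against bulk by organ). The mouse block changed no other count by over 1.5 times. BP and PBS mice share numbers alone (correlations of deviations -0.26 to 0.49), and a block on them called none and turned Cd74 in tumor to 0.41. H2-Aa in spleen NA cells, near 0, turned to -0.016 without mitochondrial genes, -0.0035 with the spread from 48 libraries and -8.2e-05 with the replicate block. With 1 library left out it ran from -0.10 to 0.12, and Cd74 in bone marrow NA cells from -0.049 to 0.18. For BP against PBS, Cd74 ran from -0.89 to 1.05 in tumor, -0.11 to 0.41 in lung, -0.19 to 0.29 in spleen and -0.19 to 0.16 in liver. Ciita ran from -1.45 to 0.50 in tumor and -0.53 to 0.090 in bone marrow, H2-Ob from -0.20 to 0.17 in lung and -0.22 to 0.78 in bone marrow, H2-DMb1 in spleen from -0.0043 to 0.31, and H2-Eb1 in liver from -0.065 to 1.12. The causes were not tested. Where 1 library is left, it is assumed to vary like the rest. Depth limits H2-Oa, at 1 to 20 counts in tumor and 2 to 11 in bulk liver.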
